A study of Mus musculus with 12 samples.

Results

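The 12 cortex libraries of this series were regrouped here, the members being chosen by their own App reads. The 5 libraries above 2500 App CPM (counts of a gene per 1000000 reads counted in genes) were AP replicates 1 and 2 and AP_S3 replicates 1, 2 and 4, written below as AP_1, AP_2, AP_S3_1, AP_S3_2 and AP_S3_4. The other 7 libraries were the 3 of WT, the 3 of S3 and AP_4. App and Prnp chose or mark the groups, so both are described and neither was tested. WT are C57/BL6 mice, AP carry the APP/PS1 transgenes, S3 are Sirt3-/-, and AP_S3 combine both (APP/PS1/Sirt3-/-), with 3 libraries each, all labelled female and 8 months old. The transgenes of APP/PS1 mice, among them a chimeric mouse and human APP, are driven by mouse prion protein promoter elements, and Sirt3-/- mice lack the mitochondrial deacetylase SIRT3 in all tissues. RNA came from several mice in each group. That each library is 1 mouse is not stated outright, so p-values measure the spread between these libraries.

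Amyloid precursor protein is cut by secretases into amyloid peptides that collect in plaques in the cortex of APP/PS1 mice. Microglia, the resident macrophages of the brain, gather at plaques, where they lower some of their homeostatic genes and raise a set known as disease-associated microglia genes, among them Cst7, Itgax and Clec7a. Astrocytes near plaques raise the filament gene Gfap and the protease inhibitor gene Serpina3n.

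Several libraries went against their labels. AP_4 is labelled APP/PS1, yet its App and Prnp levels lay with those of WT and S3, which is why the rule placed it among the 7. Sirt3, the deleted gene, was at 0.19 to 0.47 CPM in S3 and 0.21 CPM in AP_S3_2, but at 28.6 CPM in AP_S3_1 and 27.7 CPM in AP_S3_4, against 59.0 to 64.5 CPM in WT and AP. The 4 libraries numbered 4 held reads of the Y-linked gene Ddx3y at 32.3 to 38.4 CPM and next to no Xist, although all are labelled female. These 4 are 1 of the 5 libraries above the threshold and 3 of the 7 below. The column totals of the read counts lay between 15251720 and 18644376. Markers of neighbouring brain regions also differed. The summed level of 12 thalamic genes ranged from 197.3 to 496.6 CPM in the 5 and from 98.3 to 410.1 CPM in the 7, and that of 13 striatal genes from 317.9 to 1788 CPM and from 323.9 to 2986 CPM. The 12 choroid plexus genes ranged from 38.1 to 1146 CPM in the 5 and from 15.3 to 1780 CPM in the 7. S3_2 had the highest striatal sum and the lowest sum of 16 cortical neuron genes, 1696 CPM. Their part in the results was not tested beyond the fits given below. In bulk tissue, more cells of a type and more RNA per cell cannot be told apart.

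App (ENSMUSG00000022892, GRCm38 chromosome 16 from 84954440 to 85173707) was counted at 3614 CPM in AP_1, 3794 in AP_2, 3295 in AP_S3_1, 3856 in AP_S3_2 and 3479 in AP_S3_4, with library sizes scaled by TMM. It was at 1602, 1755 and 1844 CPM as the lowest, the median and the highest of the 7 others. The groups left a wide gap, with AP_4 at 1623 CPM. On the column totals that the rule uses, the lowest library above the threshold was AP_S3_1 with 3375.2 CPM and the highest below it was S3_4 with 1810.7 CPM. The mean was 3608 ± 230 (SD, n = 5) against 1728 ± 99.6 (SD, n = 7), a ratio of 2.09. Reads of the transgene and of the mouse gene are not separated in these counts.

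Prnp (ENSMUSG00000079037, chromosome 2 from 131909928 to 131938429), the prion protein gene, followed App. It was at 1673 CPM in AP_1, 1771 in AP_2, 1500 in AP_S3_1, 1677 in AP_S3_2 and 1490 in AP_S3_4, and between 558.8 and 634.7 CPM in the 7 others. No library of one group reached the other, and the ratio of the means was 2.72.

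Lamr1-ps1 (ENSMUSG00000081229, chromosome 2 from 131904086 to 131904959, plus strand), a pseudogene of the ribosomal protein gene Rpsa, separated the 2 groups as App did. It had 87 reads in AP_1, 49 in AP_2, 72 in AP_S3_1, 66 in AP_S3_2 and 57 in AP_S3_4, and 0 reads in each of the 7 others, AP_4 included. A count of 0 over 7 libraries allows up to 3 reads, or 0.0259 CPM, so the level was at least 147-fold higher in the 5, counting error only. The pseudogene ends 4968 bases before the start of Prnp on the same strand. Of 33 genes tested within 1000000 bases of Prnp, Lamr1-ps1 was the one called, and the log2 fold changes of the other 32 ran from -0.82 to 1.16 with adjusted p of 0.167 or more (edgeR quasi-likelihood test). Rpsa itself was at 385.8 ± 12.7 CPM (SD, n = 5) and 380.9 ± 26.6 (SD, n = 7). Lamr1-ps1 shares 76.2% of 847 aligned bases with an Rpsa transcript. The stretch below is shown because the gene had reads in 1 of the 2 groups only. It runs over 200 bases of the GENCODE vM21 transcript (GRCm38 chr2:131904086-131904285, plus strand), and capitals mark the 54 bases that differ from the aligned base of Rpsa.
Lamr1-ps1: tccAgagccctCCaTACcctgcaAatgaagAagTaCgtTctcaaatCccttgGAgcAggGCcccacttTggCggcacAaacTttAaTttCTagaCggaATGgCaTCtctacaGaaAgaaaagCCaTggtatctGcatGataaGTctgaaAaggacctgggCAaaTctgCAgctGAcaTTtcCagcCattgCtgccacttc

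**Figure D1:**
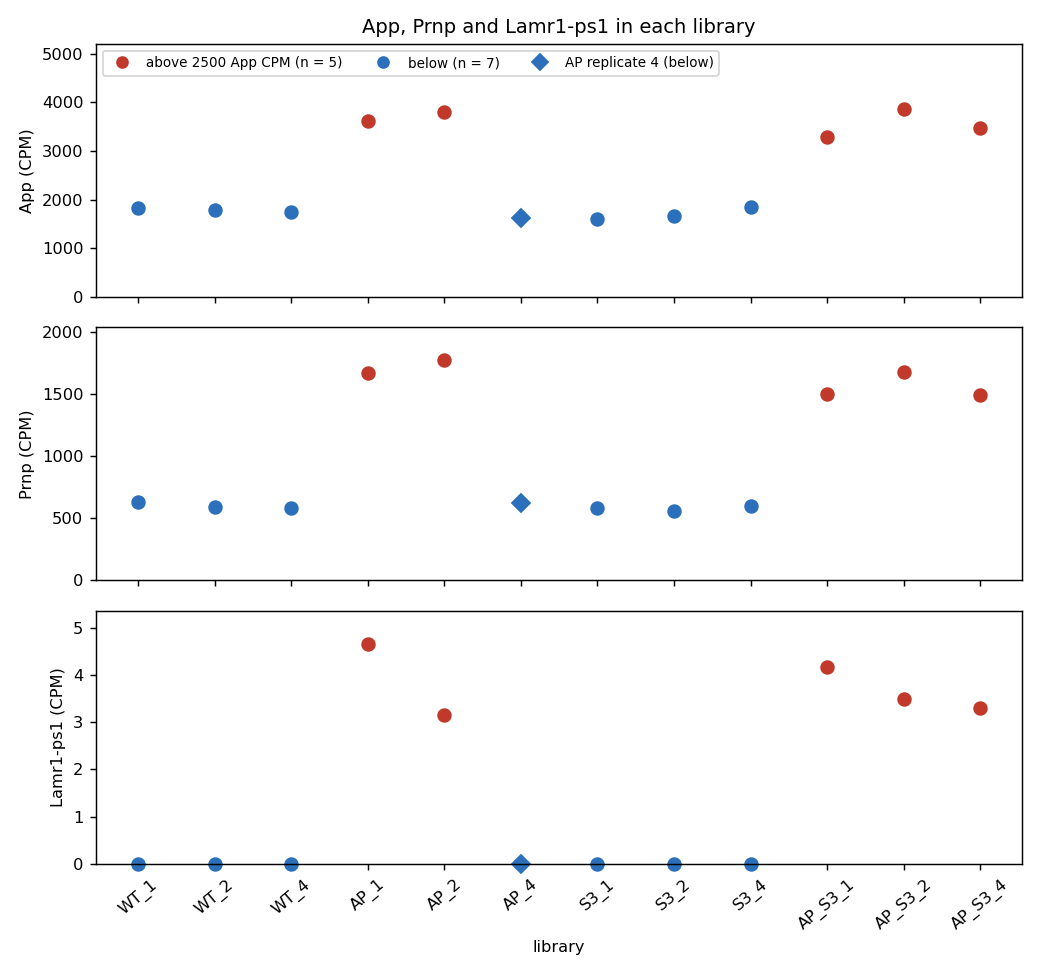
Levels of App, Prnp and Lamr1-ps1 in CPM (vertical axes, TMM library sizes) in each of the 12 libraries (horizontal axis), red for the 5 above 2500 App CPM and blue for the 7 below, with AP_4 as a diamond. App lies between 3295 and 3856 CPM in red and between 1602 and 1844 CPM in blue, and Lamr1-ps1 is at 0 in all 7 blue libraries.

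Across the 16671 genes tested (16673 passed the filter on low counts, less App and Prnp), 8 were higher in the 5 libraries and 4 were lower at an adjusted p under 0.05. These are 0.048% and 0.024% of the genes tested, and 0.072% together. The 8 were Lamr1-ps1, the microglial genes Cst7, Clec7a, Itgax, Ccl3, Ccl6 and Mpeg1, and Ndn. The 4 were Actr3b, Lin7b, Eepd1 and Cntn3. Cst7, Clec7a, Itgax, Ccl3 and Lamr1-ps1 met the count minimum of the filter (0.595 CPM in 3 libraries) through the 5 libraries only, so these 5 of the 12 calls could only be higher, and their count and direction support nothing further. Of all genes tested, 213 met it through the 5 only and 543 through the 7 only. At an unadjusted p under 0.05 there were 2511 genes (15.1%), 7.8% higher and 7.26% lower. DESeq2 called 210 higher (1.26%) and 134 lower (0.804%), among them these 12. Each of the 12 left no overlap between the 5 and the 7, which was true of 103 genes for higher (0.618%) and of 79 for lower (0.474%).

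Promoters of the rising microglial genes are shown for the reading of their levels beside the letters of the ETS family core, which the myeloid factor PU.1 also binds. RefSeq (GRCm38.p6) gave promoters for 10 of the 11 called genes other than Lamr1-ps1. The letters AGGAAGT and GAGGAA were searched on both strands in the 250 bases before the start, and a match of one may overlap the other. AGGAAGT was found in 7.69% of all 32851 promoters of this length and in 2 of the 7 matched genes that rose, Cst7 and Ccl6. GAGGAA was found in 23.3% of all and in 2 of the 7, Clec7a and Ccl3. Neither was found in Itgax, Mpeg1 and Ndn, which also rose, nor in the 3 matched genes that fell. The 4 sequences run 5′ to 3′ on the strand of the gene, with the matched letters in capitals. They are Cst7 at chr2:150570165-150570414 (plus), Ccl6 at chr11:83593088-83593337 (minus), Clec7a at chr6:129472780-129473029 (minus) and Ccl3 at chr11:83649379-83649628 (minus). A match is a description of the letters only.
Cst7: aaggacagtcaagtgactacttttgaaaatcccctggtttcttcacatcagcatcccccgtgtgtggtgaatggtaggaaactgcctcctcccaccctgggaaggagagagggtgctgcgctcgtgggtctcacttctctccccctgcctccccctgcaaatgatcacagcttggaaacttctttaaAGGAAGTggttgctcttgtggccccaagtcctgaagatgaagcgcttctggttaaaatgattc
Ccl6: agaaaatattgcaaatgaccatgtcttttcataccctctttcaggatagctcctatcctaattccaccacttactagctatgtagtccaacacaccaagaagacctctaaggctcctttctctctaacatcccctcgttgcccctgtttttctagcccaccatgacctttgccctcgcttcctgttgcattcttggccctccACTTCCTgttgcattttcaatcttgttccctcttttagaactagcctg
Clec7a: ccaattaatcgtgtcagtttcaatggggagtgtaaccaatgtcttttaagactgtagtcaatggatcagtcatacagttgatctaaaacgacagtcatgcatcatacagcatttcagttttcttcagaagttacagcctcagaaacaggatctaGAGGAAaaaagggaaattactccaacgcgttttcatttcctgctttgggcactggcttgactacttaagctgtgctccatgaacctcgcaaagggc
Ccl3: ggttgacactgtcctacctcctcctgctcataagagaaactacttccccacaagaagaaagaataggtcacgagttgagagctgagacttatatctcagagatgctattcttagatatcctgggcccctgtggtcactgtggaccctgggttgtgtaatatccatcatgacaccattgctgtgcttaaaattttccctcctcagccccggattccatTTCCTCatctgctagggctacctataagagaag

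Cst7 encodes cystatin F, an inhibitor of lysosomal cysteine proteases in microglia at plaques. It was at 2.94 CPM in AP_1, 15.6 in AP_2, 6.18 in AP_S3_1, 6.70 in AP_S3_2 and 5.03 in AP_S3_4, against 0, 0.19 and 0.44 CPM as the lowest, the median and the highest of the 7. AP_2 stood highest and AP_1 lowest among the 5, and no library of the 7 came near. AP_4 held 1 read. The log2 fold change was 5.39 ± 0.58 (SE), adjusted p = 0.00305 (edgeR).

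Clec7a encodes Dectin-1, a receptor for fungal glucans that microglia raise at plaques. It was at 1.23, 3.34, 1.79, 1.64 and 1.27 CPM in AP_1, AP_2, AP_S3_1, AP_S3_2 and AP_S3_4, and at 0 to 0.35 CPM in the 7. AP_2 was again the highest. The log2 fold change was 3.23 ± 0.43 (SE), adjusted p = 0.00585 (edgeR). These levels rest on 22 to 52 reads a library in the 5 and on 0 to 6 in the 7.

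Itgax, the CD11c integrin subunit, was at 1.02 CPM in AP_1, 6.37 in AP_2, 3.35 in AP_S3_1, 2.22 in AP_S3_2 and 2.43 in AP_S3_4, against 0.12 to 0.63 CPM in the 7. AP_1 was the library nearest to the other group, above WT_1. The log2 fold change was 3.11 ± 0.43 (SE), adjusted p = 0.00833 (edgeR).

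Both chemokines of myeloid cells that passed were higher in every one of the 5. Ccl3, which attracts monocytes and other leukocytes, was at 0.54, 1.61, 1.27, 1.06 and 1.10 CPM in AP_1, AP_2, AP_S3_1, AP_S3_2 and AP_S3_4, against 0.06 to 0.19 CPM in the 7. Its log2 fold change was 2.92 ± 0.34 (SE), adjusted p = 0.00305 (edgeR). Ccl6, a chemokine known from the mouse, was at 2.41, 5.98, 3.23, 3.85 and 2.37 CPM in the same libraries and at 0.51 to 1.52 CPM in the 7, a log2 fold change of 1.81 ± 0.28 (SE), adjusted p = 0.0190 (edgeR), a call that held in 14 of 22 alternatives. Mpeg1 encodes perforin-2, a pore-forming protein of macrophages, and its change was smaller. It was at 30.1 CPM in AP_1, 56.2 in AP_2, 45.0 in AP_S3_1, 46.0 in AP_S3_2 and 41.7 in AP_S3_4, against 22.9 to 30.04 CPM in the 7. AP_1 at 30.07 CPM was barely above WT_2 at 30.04 CPM. The log2 fold change was 0.74 ± 0.12 (SE), adjusted p = 0.0452 (edgeR), and the call held in 8 of 23 alternatives.

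**Figure D2:**
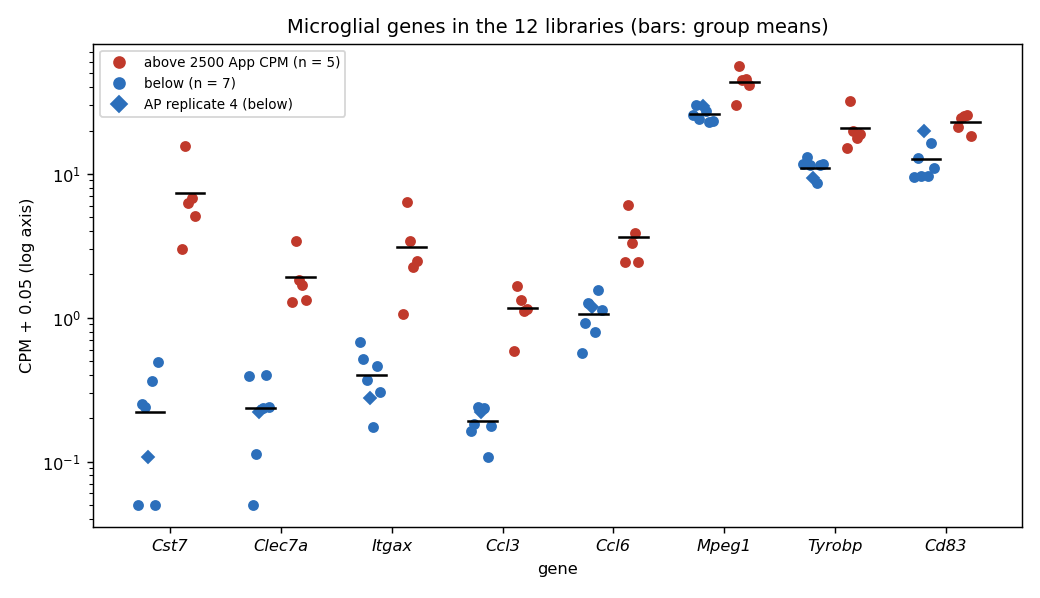
Levels of 8 microglial genes (CPM + 0.05, log axis) in the 5 libraries above 2500 App CPM (red), the 7 below (blue) and AP_4 (blue diamond), with the group means as bars. For Cst7, Clec7a, Itgax, Ccl3 and Ccl6 the red points lie above all blue points, with AP_4 among the blue ones, while for Cd83 AP_4 at 19.8 CPM lies among the red.

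Ndn, which encodes necdin, an imprinted protein of neurons, was the called gene with the most reads among those that rose. It was at 173.6 CPM in AP_1, 149.5 in AP_2, 155.9 in AP_S3_1, 180.2 in AP_S3_2 and 166.6 in AP_S3_4, and at 77.7, 99.2 and 125.3 CPM as the lowest, the median and the highest of the 7. The highest of the 7 was AP_4, with the next, S3_2, at 107.3 CPM. The log2 fold change was 0.74 ± 0.09 (SE), adjusted p = 0.00452 (edgeR).

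The 4 genes that fell changed by less and are expressed in neurons or widely. Actr3b, an actin-related protein of the complex that branches actin filaments, was at 62.5, 64.8, 67.4, 63.9 and 70.2 CPM in AP_1, AP_2, AP_S3_1, AP_S3_2 and AP_S3_4, and at 79.1 to 88.3 CPM in the 7. No libraries overlapped, and AP_4 with 80.1 CPM lay among the 7. Its log2 fold change was -0.33 ± 0.05 (SE), adjusted p = 0.00833 (edgeR). Lin7b, a scaffold protein of synapses, was at 43.3 to 50.5 CPM in the 5 and at 55.5 to 61.2 CPM in the 7 (log2 fold change -0.31 ± 0.05 SE, adjusted p = 0.0198, edgeR). Eepd1, a nuclease of stalled replication forks, was at 16.9 to 21.2 CPM against 22.5 to 26.5 CPM (-0.42 ± 0.07 SE on the log2 scale, adjusted p = 0.0452, edgeR). Cntn3, the neuronal adhesion molecule contactin 3, was at 17.8 to 21.7 CPM against 23.4 to 28.1 CPM (-0.43 ± 0.07 SE on the log2 scale, adjusted p = 0.0452, edgeR). AP_4 was among the 7 in the fit that called these 4 genes, so its place on that side is no separate result. For Cntn3 it was the lowest of the 7, at 23.4 CPM. The calls held in 22 of 23 alternatives for Actr3b, 11 for Lin7b, 7 for Eepd1 and 9 for Cntn3.

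**Figure D3:**
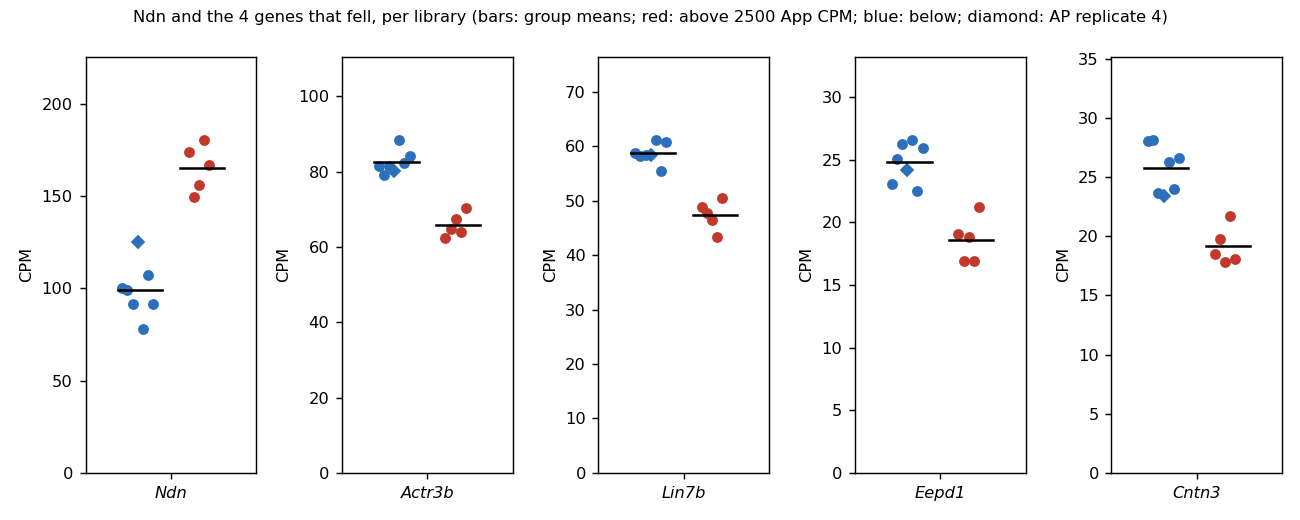
Levels of Ndn, Actr3b, Lin7b, Eepd1 and Cntn3 in CPM (vertical axes from 0) in the 5 libraries above 2500 App CPM (red) and the 7 below (blue, AP_4 as a diamond), with group means as bars. The red points of Ndn run from 149.5 to 180.2 CPM with AP_4 at 125.3 CPM as the highest blue point, and for the 4 genes that fell all red points lie below all blue points.

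The calls moved with the region markers, with single libraries and with the settings given in the closing section. With the mean levels of striatal, thalamic and choroid plexus markers as 3 covariates, 1 gene passed, Lamr1-ps1 (adjusted p = 0.00124, edgeR). The log2 fold changes of Cst7, Clec7a, Itgax and Ccl3 were 5.62, 3.09, 3.40 and 3.02 in that fit, with adjusted p between 0.105 and 0.145 (edgeR). Single libraries moved the number of calls more. Without S3_2 the fit called 396 genes higher and 428 lower, without AP_4 it called 84 and 55, and without both it called 808 and 869, and all 12 genes were among the calls each time. Leaving out WT_2, AP_2, S3_1, S3_4 or AP_S3_1 gave 7 calls each, all among the 12, and without AP_S3_4 there were 19, with 10 of the 12.

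The likeness to App over the 12 libraries was measured by Pearson's correlation of log2 CPM, as a description, since the libraries form 2 clusters and share the grouping. The 10 genes with the highest values were Prnp (0.993), Lamr1-ps1 (0.985), Cst7 (0.946), Ccl3 (0.936), Clec7a (0.906), Itgax (0.905), Ndn (0.903), Sqle (0.902), Rfwd3 (0.887) and Ly86 (0.884). By rank correlation only Ly86 of these was in the first 10. Ly86, which encodes MD-1, a partner of the receptor RP105 on myeloid cells, was at 8.08 to 11.4 CPM in the 5 and at 5.89 to 7.71 CPM in the 7. Sqle, squalene epoxidase of cholesterol synthesis, was at 59.6 to 68.3 CPM against 49.3 to 58.0 CPM. Rfwd3, a ubiquitin ligase of DNA repair, was at 30.9 to 32.6 CPM against 27.6 to 30.4 CPM. None of these 3 passed over all genes, with adjusted p of 0.101, 0.0921 and 0.208 (edgeR). The most opposed gene was Actr3b, with a correlation of -0.959.

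Of 35 disease-associated microglia genes, 32 were tested. There were 5 called higher (Cst7, Clec7a, Itgax, Ccl3 and Ccl6) and 0 lower, against 0.048% and 0.024% of all genes tested. At an unadjusted p under 0.05, 20 were higher (7.8% of all genes). The median log2 fold change was 0.496 against -0.005 over all genes. Cst7, Clec7a, Itgax and Ccl3 are the 4 members that met the count minimum through the 5 libraries only, so their direction was fixed by the filter. The 5 libraries lay above the 7 without overlap in 8 of the 32, against 0.618% of all genes tested. Those 4 members are among the 8, and the filter favoured their separation, so it adds nothing further. Tyrobp, the adaptor of the TREM2 receptor, was also one of the 8. It was at 15.1, 31.9, 19.8, 17.7 and 18.9 CPM in AP_1, AP_2, AP_S3_1, AP_S3_2 and AP_S3_4 and at 8.56 to 12.96 CPM in the 7. AP_2 was far above the others, and the gene did not pass (log2 fold change 0.91 ± 0.16 SE, adjusted p = 0.0768, edgeR). Ctsd, the lysosomal protease cathepsin D, was at 435.5 to 593.1 CPM against 328.8 to 407.8 CPM and had an adjusted p of 0.0768 too (log2 fold change 0.43 ± 0.08 SE, edgeR). Cd83, a surface marker of activated dendritic cells and B cells, overlapped because AP_4 had 19.8 CPM, above AP_S3_4 with 18.3 CPM (adjusted p = 0.117, edgeR). Of 19 homeostatic microglia genes 0 passed. At an unadjusted p under 0.05, 9 of them were higher and 1 was lower, against 7.8% and 7.26% of all genes. The log2 fold change was positive for 18 of the 19, against 8099 of all 16671 genes, and the median of the 19 was 0.186. Their summed level was 477.2 to 583.8 CPM in the 5 and 449.7 to 508.8 CPM in the 7. The 12 border macrophage, blood and lymphoid markers tested had 0 calls and a median of -0.06, and their sum was 172.8 to 217.5 CPM in the 5 and 49.9 to 437.6 CPM in the 7.

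The other immune lists had positive medians with 0 members called in either direction, against 0.048% and 0.024% of all genes tested. At an unadjusted p under 0.05, 6 of 15 complement, 9 of 15 Fc and pattern recognition and 10 of 26 lysosomal genes were higher. So were 3 of 17 antigen presentation and 4 of 17 cytokine and receptor genes (7.8% of all genes). In the complement, lysosomal and cytokine lists 1 gene each was lower (7.26%). Tlr1 and Cd36 of the Fc list met the count minimum through the 5 libraries only. Complement had a median log2 fold change of 0.402 over 15 genes, and C1qa, a chain of the C1q starter complex, lay at 51.39 to 77.4 CPM against 40.4 to 51.39 CPM, AP_S3_2 and WT_1 being level. C4b, which encodes complement component C4, was at 68.2 to 144.0 CPM against 35.7 to 70.9 CPM (log2 fold change 0.75 ± 0.20 SE, adjusted p = 0.152, edgeR). C3, the central component, was at 2.68, 3.796, 6.52, 5.96 and 14.7 CPM in AP_1, AP_2, AP_S3_1, AP_S3_2 and AP_S3_4 and at 1.06 to 6.90 CPM in the 7, with much overlap (adjusted p = 0.54, edgeR). The Fc and pattern recognition receptors had a median of 0.450 over 15 genes, with Fcgr3, an activating receptor for antibody, at 12.5 to 16.7 CPM against 7.88 to 12.4 CPM (adjusted p = 0.109, edgeR). For 26 lysosomal genes the median was 0.150, and Ctss, the protease cathepsin S, was at 56.2 to 92.1 CPM against 44.8 to 56.0 CPM (adjusted p = 0.0921, edgeR). The 17 genes of antigen presentation had a median of 0.217 and the 17 cytokine and receptor genes one of 0.163.

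The 23 interferon response genes had a median log2 fold change of 0.586, all 23 had a positive value and 13 were higher at an unadjusted p under 0.05 (7.8% of all genes), yet 0 passed. Oas1a, an enzyme that senses double-stranded RNA, was at 1.07 CPM in AP_1, 1.48 in AP_2, 3.06 in AP_S3_1, 1.06 in AP_S3_2 and 1.33 in AP_S3_4, against 0.35 to 0.95 CPM in the 7 (adjusted p = 0.122, edgeR). Ifit3, an antiviral protein, was at 29.8 CPM in AP_S3_1 and at 10.8 to 15.4 CPM in the other 4, against 4.96 to 10.6 CPM in the 7 (adjusted p = 0.155, edgeR). AP_S3_1 was thus the highest for both, and it had the highest sum of the list with 262.9 CPM, where the other 4 had 140.2 to 188.0 CPM and the 7 had 122.1 to 153.6 CPM.

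Of 24 reactive astrocyte genes 0 passed and 11 were higher at an unadjusted p under 0.05 (7.8% of all genes), with a median log2 fold change of 0.176. Gfap was at 343.4 CPM in AP_1, 611.5 in AP_2, 401.4 in AP_S3_1, 377.4 in AP_S3_2 and 220.1 in AP_S3_4, and at 121.6 to 269.2 CPM in the 7. Only AP_S3_4 fell into the range of the 7 (log2 fold change 0.97 ± 0.25 SE, adjusted p = 0.152, edgeR). Serpina3n was at 16.45 to 30.7 CPM against 10.35 to 14.9 CPM with no overlap (0.69 ± 0.15 SE on the log2 scale, adjusted p = 0.116, edgeR), and AP_2 was the highest of the 5. Vim, the filament protein vimentin, was at 39.9 to 45.7 CPM against 23.1 to 38.7 CPM (adjusted p = 0.166, edgeR).

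Genes of amyloid processing and clearance other than App showed little. Of 22 tested, 0 passed, 1 was higher at an unadjusted p under 0.05, a share near the 7.8% of all genes, and the median log2 fold change was -0.002. Ide, the insulin-degrading enzyme that also degrades amyloid peptide, was at 80.5, 74.4, 38.6, 63.3 and 38.8 CPM in AP_1, AP_2, AP_S3_1, AP_S3_2 and AP_S3_4 and at 35.6 to 86.0 CPM in the 7. The 2 groups covered nearly the same range (log2 fold change -0.02 ± 0.29 SE, adjusted p = 0.98, edgeR, with the sign turning in 9 alternatives). Each group mixes the Sirt3 labels. Ide was at 35.6 to 41.7 CPM in S3 and at 62.0 to 86.0 CPM in WT and AP. AP_S3_1 and AP_S3_4 lay with S3, and AP_S3_2 lay with WT and AP. Serpina3k was at 0.90 to 3.58 CPM against 0.12 to 3.14 CPM, AP_4 being the highest of the 7 (adjusted p = 0.405, edgeR). Of 10 diacylglycerol kinases, enzymes that turn the second messenger diacylglycerol into phosphatidic acid, 0 passed, and the median was -0.069. Dgkh was at 4.44 to 10.7 CPM against 7.53 to 18.1 CPM. Its overlap came from AP_4 at 7.53 CPM, the lowest of the 7, and AP_2 was the lowest of the 5 (log2 fold change -0.80 ± 0.23 SE, adjusted p = 0.165, edgeR).

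Lists of cortical neurons and of neuronal activity had negative medians, and a list of thalamic neurons a positive one. Immediate early genes, which neurons switch on with activity, had a median log2 fold change of -0.44 over 20 genes with 0 calls. Cortical neuron genes had one of -0.322 over 16 genes, 7 of them lower at an unadjusted p under 0.05 (7.26% of all genes), and Cux1, a factor of upper layers, was at 83.4 to 111.5 CPM against 103.6 to 143.9 CPM (adjusted p = 0.131, edgeR). Thalamic neuron genes had a median of 0.727 over 12 genes with 0 calls and all 12 positive. Tcf7l2, a factor of thalamic neurons, was at 40.1, 52.4, 60.4, 60.2 and 9.08 CPM in AP_1, AP_2, AP_S3_1, AP_S3_2 and AP_S3_4, and at 47.8 CPM in AP_4 against 4.65 to 22.3 CPM in the 6 others. Here AP_4 stood with the 5 and AP_S3_4 with the 7. Respiratory chain genes had a median of 0.015 over 26 genes, and the 15 oligodendrocyte genes one of 0.087, with 0 calls in both.

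**Figure D4:**
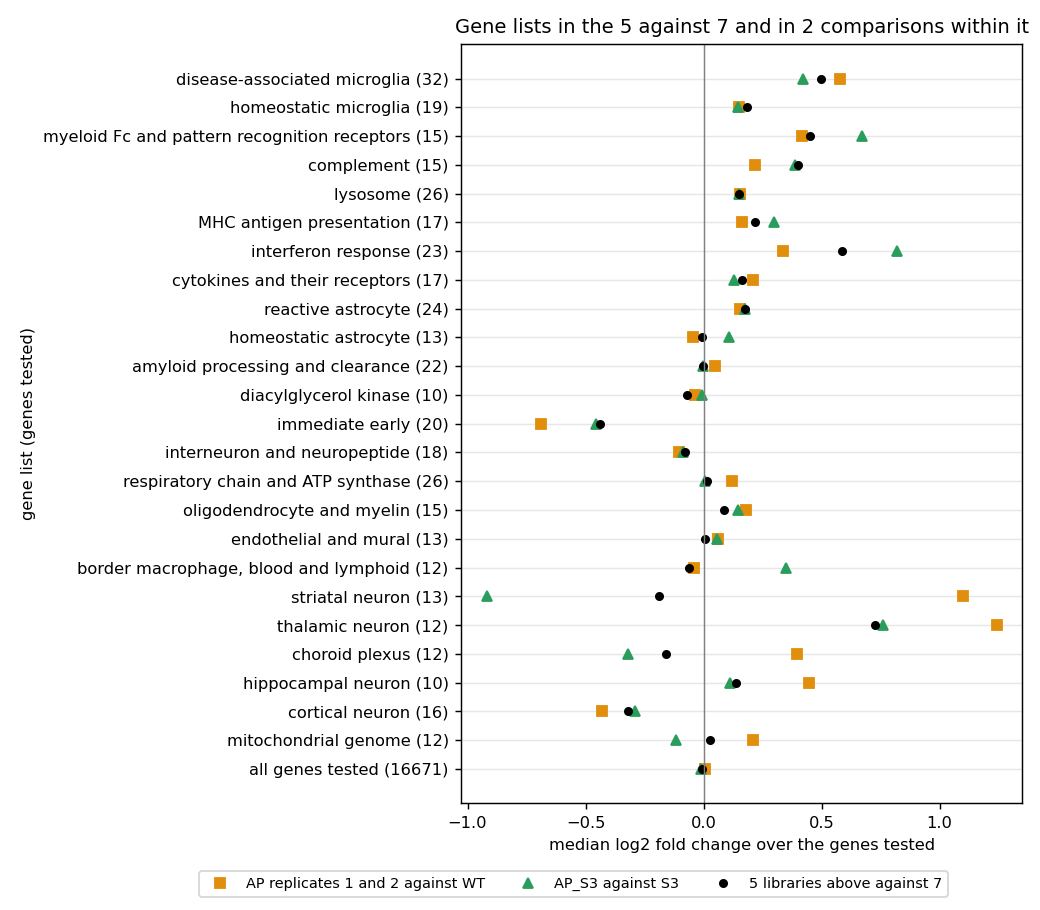
Median log2 fold change (horizontal axis) over the tested genes of each list (vertical axis, number in brackets) for the 5 libraries above 2500 App CPM against the 7 (black), AP_1 and AP_2 against WT (orange squares) and AP_S3 against S3 (green triangles). Disease-associated microglia genes lie at 0.496, 0.576 and 0.42, while striatal genes lie at -0.187, 1.099 and -0.918.

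AP_4 was then left out, so that the split is the one of the labels (5 APP/PS1 libraries against 6 without the transgenes). There were 84 genes higher (0.504%) and 55 lower (0.33%), 139 together (0.834%), and they included all 12. Leaving out 1 more library gave from 4 calls (without AP_S3_1) to 1677 (without S3_2), with 628 without AP_S3_4 and 9 to 40 without any of the others. In this fit 8 disease-associated microglia genes passed. They were the 5 above with Tyrobp (adjusted p = 0.0466), Cd83 (0.0164) and Ctsd (0.0429, edgeR). Of these 8, Cst7, Clec7a, Itgax and Ccl3 could again only be higher because of the filter. Ctss (0.0472) and Grn (0.0472, edgeR), the lysosomal growth factor progranulin, also passed, and so did Fcgr3 (0.0499, edgeR) and Dgkh (log2 fold change -0.91, adjusted p = 0.0429, edgeR).

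The largest rises of this fit held few immune genes, and the following were chosen after their values were seen. Gata3, a factor of midbrain and hindbrain inhibitory neurons, was at 3.10 CPM in AP_1, 5.40 in AP_2, 4.04 in AP_S3_1, 3.85 in AP_S3_2, 0 in AP_S3_4, 4.28 in AP_4 and 0 to 0.06 CPM in WT and S3. Only AP_S3_4 departed from the other APP/PS1 libraries. En1, a midbrain and hindbrain factor, was at 1.55 to 4.86 CPM in the same 4 libraries, at 1.20 CPM in AP_4, and at 0 in AP_S3_4. Slc6a4, the serotonin transporter of raphe neurons, was at 2.30, 2.06, 12.8 and 12.2 CPM in the 4, at 0.34 CPM in AP_4 and at 0.06 CPM in AP_S3_4. Its level in AP_4 was far below those of the 4 and nearer to the 0 to 0.13 CPM of WT and S3. Sox14, a developmental factor kept in parts of the midbrain, was at 0.70 to 2.32 CPM in the 4, at 1.37 CPM in AP_4 and at 0.12 CPM in AP_S3_4. Pax3, another such factor, was at 0.37 to 1.54 CPM in the 4, at 0.46 CPM in AP_4 and at 0.12 CPM in AP_S3_4. Since these genes were picked for their values, their pattern is a description only. Each met the count minimum of the filter through the 5 libraries above the threshold only, so each could only be called higher.

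The place of AP_4 was measured for each of the 139 genes on a scale from 0 (mean of the 6) to 1 (mean of the 5). AP_4 took no part in the fit that called these genes, but the filter on low counts ran over all 12 libraries. The median was 0.711, with 0.698 for the 84 genes called higher and 0.803 for the 55 called lower. AP_4 lay in the range of the 5 only for 69 genes, in that of the 6 only for 45, in both for 3, between them for 14 and beyond the 5 for 8. For the 11 genes in the glial immune lists the median was 0.142, and AP_4 lay with the 6 for 10 of them and with the 5 for Cd83. Of these 11, Cst7, Clec7a, Itgax and Ccl3 met the count minimum through the 5 only, so they could enter only as genes high in the 5. For the 15 genes at least 4-fold higher that are in none of the glial immune lists the median was 1.111. AP_4 lay in the range of the 5 only for 14, Lamr1-ps1 being the exception. The range of the 5 reaches down to the low values of AP_S3_4 for many of these 14. On the scale itself, AP_4 was under 0.5 for 2 of the 15. Among the 15, Lamr1-ps1, Gata3, En1, Slc6a4, Sox14 and Pax3 met the count minimum through the 5 only. They too could enter only as genes high in the 5, so the medians of the glial genes and of these 15 are a description.

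**Figure D5:**
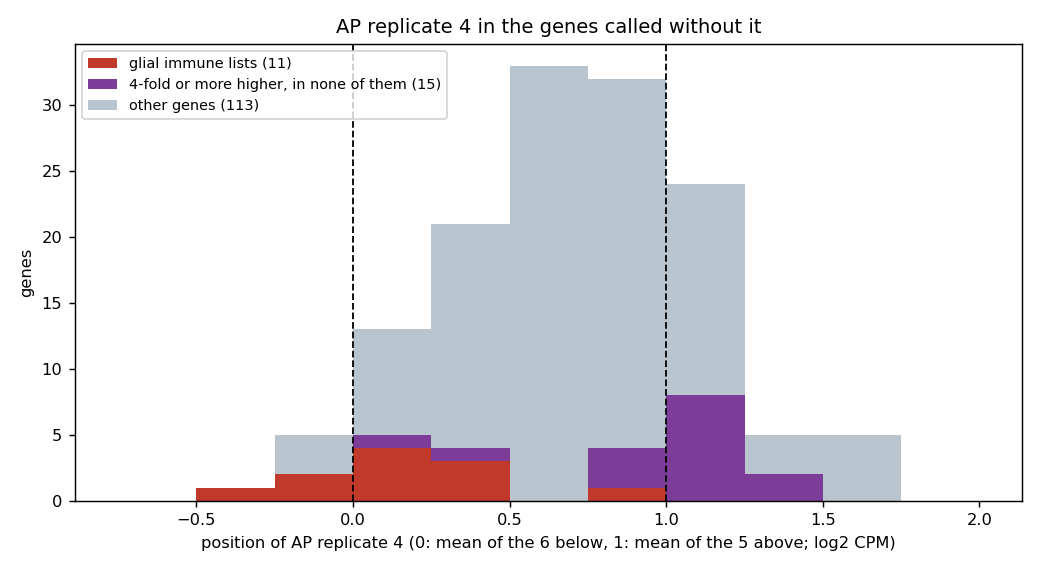
Number of genes (vertical axis) by the position of AP_4 between the mean of the 6 libraries below (0) and that of the 5 above (1) in log2 CPM (horizontal axis), for the 139 genes called without AP_4. The 11 genes of the glial immune lists (red) lie mostly near 0, with a median of 0.142, and the 15 genes at least 4-fold higher in none of these lists (purple) mostly near 1, with a median of 1.111. Genes of both sets that met the count minimum through the 5 only could enter only as genes high in the 5.

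The split holds 2 comparisons that share no library, AP_1 and AP_2 against WT, and AP_S3 against S3. The first called 331 genes higher (1.99%) and 430 lower (2.58%), 4.56% together, and from 315 (without WT_4) to 1307 (without WT_1) with 1 WT library left out. Without AP_1 (177 calls) or AP_2 (255 calls) that arm held 1 library, which was assumed to vary as the WT libraries do, so these counts do not bear on stability. The second called 0 (0.0%) with edgeR, 1303 genes (7.82%) having an unadjusted p under 0.05, and 39 higher (0.234%) and 23 lower (0.138%) with DESeq2. It called up to 39 with a library left out, that one being S3_2. The test of the difference between the 2 comparisons also called 0 genes (0.0%) with edgeR, 939 (5.63%) at an unadjusted p under 0.05, and 7 higher (0.042%) and 4 lower (0.024%) with DESeq2. Of the 761 genes called in the first, 672 (88.3%) had the same direction in the second, against 62.9% of all genes. Of these 761, 131 (17.2%) had the same direction and an unadjusted p under 0.05 in the second, where 7.82% of all genes had such a p in either direction. There were 383 genes (2.3% of those tested) with such a p and the same direction in both.

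In these 2 comparisons, Cst7 had a log2 fold change of 6.12 in AP_1 and AP_2 against WT and 4.56 in AP_S3 against S3, and the difference was -1.57 (adjusted p = 0.937, edgeR). Clec7a had 3.91 and 2.64, Itgax 2.92 and 3.29, and Ccl3 2.79 and 3.14. Lamr1-ps1 had 9.02 and 8.96, values that depend on the prior count. Ndn had 0.74 and 0.86, and Actr3b -0.34 in each. For these 7 genes the test of the difference gave adjusted p of 0.93 or more (edgeR). They were called in the split that holds these same libraries, so like values in the 2 comparisons follow in part from that choice. Cst7, Clec7a, Itgax, Ccl3 and Lamr1-ps1 could only be higher because of the filter. The SE of the difference was 1.57 for Cst7 and 1.02 for Clec7a, so the test does not show equal changes. Disease-associated microglia genes had medians of 0.576 and 0.42, with 29 of 32 positive in each, and interferon genes 0.338 and 0.82. The striatal list showed opposite medians, 1.099 and -0.918, with all 13 genes positive in the first and 0 in the second. At an unadjusted p under 0.05, 2 were higher in the first and 0 lower in the second. The striatal sum was 1235 CPM in AP_1 and 489.2 in AP_2, against 323.9 to 682.9 CPM in WT. It was 1167, 317.9 and 1788 CPM in AP_S3_1, AP_S3_2 and AP_S3_4, against 1617 to 2986 CPM in S3. Thalamic genes were positive in both comparisons for all 12.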

How the data were processed

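RNA-seq read counts of mouse cortex were analysed for 12 libraries, 3 in each of WT, AP, S3 and AP_S3, with groups and numbers (1, 2 and 4) taken from the titles. After trimming, the authors mapped reads with TopHat to GRCm38 (mm10) and deposited whole-number read counts per gene. The sources used here name no gene counter, annotation release or strand setting, so reads of overlapping or antisense genes may be shared. FPKM values were deposited too and not used. The table's gene length column, deposited by the authors and of another unit, was not used either. Fold changes and p-values of the authors' DESeq2 comparisons are in the same table and were not used.

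Libraries were split at 2500 App CPM. Members, gene lists and tests were chosen with earlier results of these data known. Genes passing filterByExpr over the 4 label groups were normalized by TMM in edgeR 4.0.16 (R 4.3.3), and the split was tested by glmQLFit with robust estimation. P-values were adjusted by Benjamini and Hochberg over 16671 genes, at 0.05. A split into 5 and 7 by a measured value is not random, so its p-values describe this split. CPM use TMM library sizes, and log2 CPM a prior count of 2. The same fit was made without AP_4, in the 2 comparisons within it (AP_1 and AP_2 against WT, AP_S3 against S3), and for the difference between them over 11 libraries. Named genes were those the study names, the called genes, the 10 most like App, and leading members of the lists. Alternatives were DESeq2 1.42.0, RLE normalization, no filter, a strict filter, covariates, a replicate block, the labels in place of App, and each library left out. The fit of 5 against 7 was tested on simulated data with edgeR and DESeq2, and the other fits were not. The deviations of same-numbered libraries correlated from -0.153 to 0.161 over 18 pairs, and those of other pairs from -0.237 to 0.21. The numbers were not used as pairs, although the libraries numbered 4 share Ddx3y reads. With 15251720 to 18644376 reads a library, genes under 1 CPM rest on fewer than 20 reads each, which limits their precision. Tables and figures used Python 3.11.15 and matplotlib 3.10.9. Results for some genes are not reported here.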

Additional observations from a re-analysis of the deposited data

Results flagged for a closer look

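Within the 5 and the 7 libraries, 41 genes gave 82 groups, and 10 of them had 1 library far from the rest in log2 CPM, where chance gives about 1 group in 20. Of the 10, 5 are in Gata3, En1, Sox14 and Pax3, which were picked after their values were seen, so the 10 cannot be read against that rate. AP_4 stood above the other 6 of the 7 in 4 genes expressed outside the cortex, Gata3 at 2.14 (next library -2.50), En1 at 0.40 (next -1.99), Sox14 at 0.57 (next -1.70) and Pax3 at -0.80 (next -2.44). AP_S3_4 stood below the other 4 of the 5 in Gata3 at -3.08 (next 1.69), Tcf7l2 at 3.20 (next 5.33) and Slc17a6, the glutamate transporter of thalamic neurons, at 4.27 (next 6.05). All of these genes are markers of regions outside the cortex, and the part of tissue sampling in their levels was not tested. Serpina3n was high in AP_2 at 4.95 (next 4.29), and S3_1 was the lowest of the 7 for Vim at 4.54 (next 4.98) and C4b at 5.16 (next 5.73).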

How the results depend on the processing

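The 12 calls of the split became 344 with DESeq2, 24 with no filter on low counts, 2 with a strict filter, 1 with region markers as covariates and 278 when AP_4 was put with the APP/PS1 libraries by its label. Chosen after seeing the data, the 8 libraries numbered 1 and 2 gave 75 calls, and leaving out AP_4 and S3_2 together gave 1677. Leaving out 1 library each gave 7 to 824. Without AP_4, the 139 calls became 811 with DESeq2, 58 with a strict filter, 8 with region markers and 66 with sex read from Ddx3y as a covariate, and 4 to 1677 with 1 more library left out. For AP_1 and AP_2 against WT, 761 calls became 1337 with no filter and 177 to 1307 with 1 library left out. For AP_S3 against S3, 0 calls became 62 with DESeq2, 15 with no filter and 0 to 39 with 1 library left out. For the difference between these 2 comparisons, 0 calls became 11 with DESeq2 and 0 to 3 with 1 library left out. With the replicate block, 75 genes were called in place of 139 without AP_4, 2 in place of 0 for AP_S3 against S3, and 8 of the 12 in the split itself, where Mpeg1, Lin7b, Eepd1 and Cntn3 were lost with adjusted p from 0.0503 to 0.0979 (edgeR). The 4 libraries numbered 4 share Ddx3y reads, so the block holds that difference too. Of 18 same-numbered pairs, 6 had deviations that correlated over 0.1 (at most 0.161), while other pairs reached 0.21. Whether same-numbered libraries deviate together is not settled by these values. The cause of these differences was not tested.

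Of 930 values for 41 named genes under the alternatives, 9 turned sign, all in Ide, which lies near 0. Ide was 0.16 with the Sirt3 label as covariate, 0.00 with region markers, 0.19 by labels, 0.25 in the 8 libraries, and -0.16 to 0.10 with 1 library left out. By rank correlation 1 of the 10 genes most like App remained in the first 10. The position of AP_4 was 0.74 with the genes DESeq2 called. Depth limits genes such as Ccl3 and Clec7a, with at most 6 reads in each of the 7.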

Other observations

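The genes below were picked after their values were seen, so they stand as single genes and not as a group. Without AP_4 in the fit, Gc, the vitamin D binding protein, was at 1.60, 0.84, 3.00, 1.32 and 4.86 CPM in AP_1, AP_2, AP_S3_1, AP_S3_2 and AP_S3_4 and at 0.31 to 0.66 CPM in WT and S3 (log2 fold change 2.16 ± 0.42 SE, adjusted p = 0.0429, edgeR). AP_4 had 2.51 CPM. Apoa2, an apolipoprotein of high density lipoprotein, was at 4.91 CPM in AP_4, at 1.03 to 5.67 CPM in the 5 and at 0.57 to 1.27 CPM in the 6, with AP_2 below S3_2 and S3_4 (1.92 ± 0.39 SE on the log2 scale, adjusted p = 0.0472, edgeR). Cyp2e1, an ethanol-oxidizing enzyme of liver, was at 1.71 CPM in AP_4, at 1.87 to 4.86 CPM in the 5 and at 0.70 to 1.12 CPM in the 6 (1.68 ± 0.27 SE on the log2 scale, adjusted p = 0.0208, edgeR).

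Of the 383 genes (2.3% of those tested) with the same direction and an unadjusted p under 0.05 both in AP_1 and AP_2 against WT and in AP_S3 against S3, 163 were lower, and 4 of these are given here, again picked after their values were seen. Hipk4, a protein kinase, was at 103.7 CPM in AP_4, the lowest of the 7, and Plcb1, a phospholipase downstream of G proteins, was lowest there too at 156.5 CPM. Itpr1, the calcium release channel of the endoplasmic reticulum, and Gabrd, a subunit of extrasynaptic GABA receptors, were at 522.3 and 70.9 CPM in AP_4, again the lowest of the 7. None of the 4 passed in the split of 5 against 7, with adjusted p from 0.121 to 0.155 (edgeR).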
